A study of Xenopus laevis with 16 samples.

Results

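The T-box, LIM, TALE, Dlx and Pitx transcription factors were examined in hindlimbs that had been amputated in tadpoles of the African clawed frog, Xenopus laevis. Members are all probe sets whose platform annotation gives exactly 1 gene symbol starting with tbx, lhx, lmx1, meis, pbx, irx, dlx or pitx. There are 47 of them among the 15491 probe sets that are not array controls, and they carry 38 of the 7531 gene symbols annotated in this way. They comprise 14 LIM homeobox, 13 T-box, 11 TALE (meis, pbx and irx), 6 Dlx and 3 Pitx probe sets. A symbol ending in L or S names the copy on either subgenome of this species, which descends from a genome duplication.

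The cut ran through the middle of the zeugopodium, the lower leg segment, on 1 or both sides. The study calls stage 53 limbs regeneration-competent and stage 57 limbs non-competent, and gives neither strain nor genotype, drug treatment or age in days. Tissue lying 1 mm proximal to the cut was taken 1 day or 5 days later, so that stage and day make 4 groups, each with 4 single-colour Affymetrix arrays. Every group was amputated, and no intact limb was analysed here. Array code numbers run in blocks by group, so any effect of their order cannot be told apart from stage and day. Whether replicates came from separate animals or from pools is not stated, so p-values measure the spread between samples, which may be technical.

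T-box proteins bind DNA through the T-box domain and act as activators or repressors. LIM homeodomain proteins join a homeodomain to LIM domains that recruit cofactors such as Ldb1. TALE homeodomain proteins carry an enlarged loop in the homeodomain and often bind DNA together with Hox proteins, while Dlx and Pitx proteins are homeodomain factors of other classes. In mouse and chick limb buds, members of these families set hindlimb against forelimb identity (pitx1, tbx4, tbx5), dorsal identity (lmx1b), proximal identity (meis1, meis2) and outgrowth from the distal mesenchyme and its overlying ectodermal ridge (lhx2, lhx9, dlx5, dlx6).

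Values are log2 MAS5 signals, the per-array summary of a probe set's brightness. A signal of 1 probe set is not set against that of another, because probes differ in how well they bind, and probe sets of the same gene are numbered here by falling mean signal only to name them. For testing, a probe set had to have a mean log2 signal above 6.6, the 25th percentile of all. That left 11618 probe sets and 26 of the 47 members: all 6 Dlx, 9 of 11 TALE, 6 of 13 T-box, 4 of 14 LIM and 1 of 3 Pitx. The member just inside the limit had a mean of 6.63 and the one just outside 6.59. Of the 21 untested members, lhx9.L is described below, and the other 20 had group means between 2.95 and 6.7 in all groups. A call is an adjusted p below 0.05 in limma with Benjamini-Hochberg adjustment over all 11618 probe sets, and every adjusted p below comes from such a limma fit. Calls described as made with all arrays are those of this main fit, which weights all arrays equally. Alternative fits on the same arrays, given at the end, called further members.

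A measure of RNA quality set 3 stage 57 arrays apart: replicates 2 and 3 at 1 day, and replicate 2 at 5 days. The beta-actin control's 3′ over 5′ signal, as a log2 ratio, was 4.7 to 5.72 there, against 0.01 to 2.38 on the other 13 arrays. The same ratio of the Gapdh control was 5.46 to 7.33 there and 3.63 to 5.22 on the other 13. By that control the 3′ signal was the stronger on every array. The BioB control, which is not a frog gene, also read higher on the 3 arrays, at 10.06 to 11.83 against 8.93 to 10.02 on the other 13. These arrays thus differ by more than the actin ratio, and the reason was not tested. The 3 arrays of high actin ratio were the highest 3 of the 8 stage 57 arrays for 20.6% of all tested probe sets. They were the lowest 3 for 18.9%. Among the 26 tested members they were the highest 3 for 6 (dlx2.S, dlx3.L, dlx3.S, lhx5.S, tbx1.S and tbx6r.L) and the lowest 3 for 1 (pbx2.L). Counts of members and of listed genes are therefore also given without these arrays. Without them the stage 57 groups hold 2 arrays at 1 day and 3 at 5 days.

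Across the families, every stage difference called in the main fit was higher at stage 53, and each of the 5 families held at least 1 such member. Called lower at stage 53 were 0 of the 26 tested members in any stage comparison, where 1.56% of all tested probe sets were lower at 1 day, 3.89% at 5 days and 7.26% in the average over days. At 5 days tbx3.S, lhx2.L, lmx1b.1.S and pitx1.L were higher, 4 of 26 tested members where 3.48% of all probe sets were called higher. At 1 day tbx3.S alone was higher, 1 of 26 against 0.99% of all probe sets. With both days averaged, 7 of 26 were higher, against 9.36% of all: these 4 with tbx3.L, pbx2.L and dlx2.L. At an unadjusted limma p below 0.05 in either direction, 7 of the 26 members stood at 1 day (26.9%, against 18.1% of all tested probe sets). There were 9 at 5 days (34.6% against 22.6%) and 9 in the average (34.6% against 33.2%). Of these, lhx5.S at 1 day (-0.75) and irx4.L in the average (-0.69) were lower at stage 53, and the others were higher. The median stage difference of the 26 was -0.02 at 1 day and 0.62 at 5 days, beside 0.04 and 0.10 over all tested probe sets. When the 3 arrays of high actin ratio were left out, 11 of 27 tested members were higher at 5 days, against 8.27% of all, and 0 were lower, against 7.54%. Then 2 of 27 were higher at 1 day (0.68% of all) and 13 of 27 in the average (8.81% of all), and 0 were lower in either (1.44% and 7.34% of all). Each of these 3 counts includes lhx9.L, which enters because leaving out low stage 57 arrays lifts its mean over the limit on low signals, through the stage where it is high. Without it they are 10 at 5 days, 1 at 1 day and 12 in the average, of the same 26 members. The arrays of the stages did not overlap, with stage 53 above, for 4 of 26 members at 1 day, 6 at 5 days and 2 over both days, where 4.87%, 11.2% and 1.61% of all tested probe sets did so. Apart from the calls at 1 day, lhx2.L probe set 1 is among the members counted as called higher or not overlapping. It is also in each of the 3 counts at an unadjusted p below 0.05. It passed the limit on low signals through stage 53 alone, where it is high, so these counts partly reflect that limit.

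**Figure D1:**
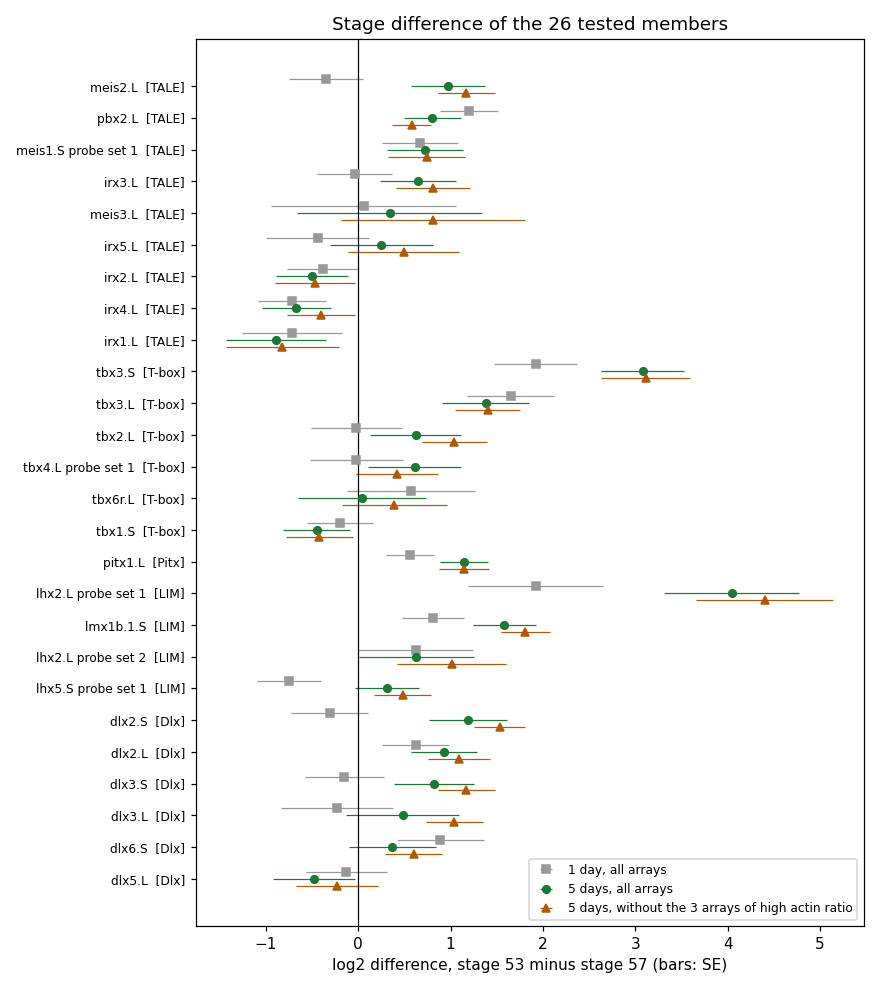
Log2 difference between stage 53 and stage 57 for each of the 26 tested members, grouped by family, with standard errors from the limma fit. Squares show 1 day, circles 5 days and triangles 5 days without the 3 arrays of high actin ratio. The tbx3.S and lhx2.L circles lie farthest right, at 3.08 and 4.04, and the irx1.L, irx2.L and irx4.L symbols all lie left of 0.

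In the LIM family, lhx2.L was higher at stage 53 than at stage 57 at 5 days. Lhx2 is a LIM homeobox gene needed, with its relative Lhx9 and with Lmx1b, for limb bud outgrowth in mouse. On lhx2.L probe set 1 the 4 stage 53 arrays at 5 days read 8.17, 9.58, 9.75 and 9.8, and the stage 57 arrays 6.1, 6.38, 2.56 and 6.1. At 1 day stage 53 read 7.59, 6.98, 8.61 and 8.35, and stage 57 read 5.53, 4.91, 6.49 and 6.92. Every stage 53 array was therefore above every stage 57 array, on either day. The difference at 5 days was 4.04 (SE 0.73, adjusted p = 0.00282). It was 4.4 without the 3 arrays, and 3.13 when the stage 57 array at 2.56 was left out. At 1 day the difference of 1.92 did not pass (SE 0.73, adjusted p = 0.188), and averaged over days it was 2.98 (SE 0.52, adjusted p = 0.00108). The probe set passed the limit of 6.6 through stage 53 alone, with stage means of 8.61 and 5.62. All 8 stage 57 arrays read below their array median, and such signals are not separated from background here, so no fold is given. The 5 day difference was 2.28 with an offset of 101.8 added before the logarithm.

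The lhx2 gene has 5 probe sets in all, and no other one passed. The lhx2.L probe set 2 read 5.83 to 8.62 at stage 53 and 6.22 to 8.0 at stage 57 at 5 days, groups that overlapped (0.63, SE 0.62, adjusted p = 0.595). The lhx2.L probe set 3 had group means of 4.3 to 5.63 and differed by 1.33 at 5 days with no filter (SE 0.88, adjusted p = 0.449), and both probe sets annotated lhx2-b had group means of 3.99 to 6.41. None of these 3 passed the filter on low signals. The symbol lhx2-b matched no entry of the RefSeq table used here, so its subgenome is not given.

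Stage 53 arrays were also well above stage 57 arrays for lhx9.L, the closest relative of lhx2. On lhx9.L probe set 1 stage 53 read 6.87, 7.42, 8.45 and 8.23 at 1 day and 8.9, 9.0, 9.46 and 9.26 at 5 days. Stage 57 read 4.36, 4.67, 5.58 and 4.04 at 1 day and 3.51, 5.71, 4.83 and 5.08 at 5 days. The lowest of the 8 stage 53 arrays thus lay above the highest of the 8 stage 57 arrays. This probe set was not tested with all arrays because its mean, pulled down by stage 57, fell just below the limit. In the limma fit with no filter the difference was 3.08 (SE 0.5, adjusted p = 0.00234) at 1 day and 4.37 (SE 0.5, adjusted p = 0.000109) at 5 days, where 0.658% and 2.34% of all 15491 probe sets were called higher. No stage 57 array, and no stage 53 array at 1 day, read above its array median. Signals of that kind are not separated from background here, so the 1 day difference lies between 2 such groups. The probe set entered the fit without the 3 arrays only because leaving out low stage 57 arrays lifted its mean over the limit. Its difference there was 4.68 at 5 days (adjusted p = 1.34e-05), and this p partly reflects that entry through stage 53. With the offset of 101.8, which also let it in, the 5 day difference was 2.34. The lhx9.L probe set 2 was dim, with group means of 3.99 to 5.31, and differed by 1.32 at 5 days with no filter (SE 0.84, adjusted p = 0.429).

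The gene lmx1b.1.S, whose mouse counterpart specifies the dorsal side of the limb, was higher at stage 53 at 5 days. No stage 57 array read above its array median on either day, so no fold is given. Its stage 53 arrays read 9.32, 9.04, 8.67 and 8.61 and its stage 57 arrays 7.48, 8.0, 6.63 and 7.2, without overlap (1.58, SE 0.34, adjusted p = 0.0092). At 1 day stage 53 read 8.16 to 8.62 and stage 57 read 7.08 to 8.45, and the difference of 0.81 did not pass (SE 0.34, adjusted p = 0.228). Of the remaining LIM members, lhx5.S on its probe set 1, named after its values were seen, was the only other one tested. It differed by -0.75 at 1 day and 0.31 at 5 days and passed at neither (adjusted p = 0.275 and 0.649). The 3 arrays of high actin ratio were its highest stage 57 arrays, at 8.15 to 9.18 against 7.57 to 8.05 on the other 5. The probe sets of lhx1.L, lhx3.L and lhx8.L and the second of lhx5.S were untested, with group means of 3.42 to 6.7.

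**Figure D2:**
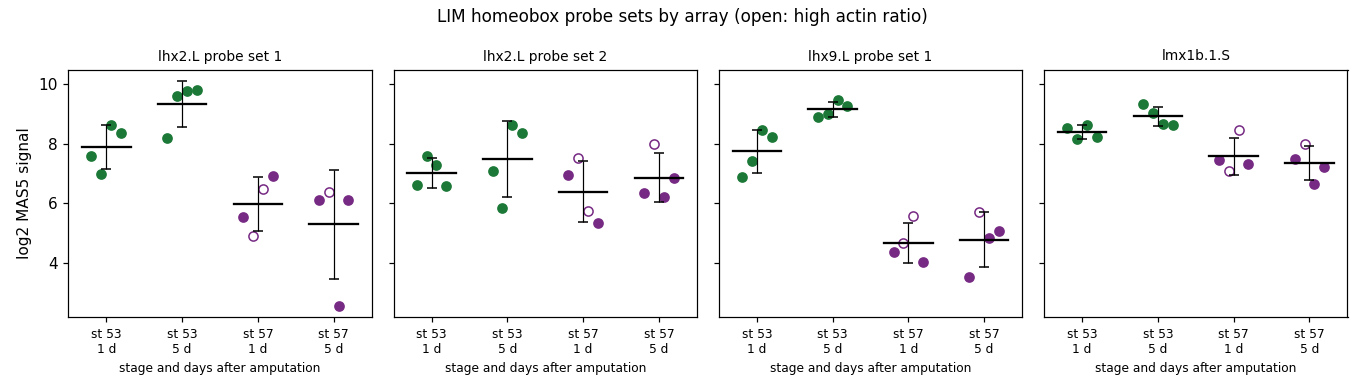
Log2 MAS5 signal on each array for 4 LIM homeobox probe sets, by stage and days after amputation, with group means and SD bars (n = 4). Open circles mark the 3 stage 57 arrays of high actin ratio. For lhx2.L probe set 1, in the first panel, and for lhx9.L all stage 53 points lie above all stage 57 points, while lhx2.L probe set 2, in the second panel, shows groups that overlap.

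In the T-box family the stage difference lay in tbx3, a repressor gene expressed along the margins of the limb bud in mouse and chick. For tbx3.S, stage 53 read 10.22, 11.07, 10.78 and 10.44 at 5 days and stage 57 read 7.13, 7.63, 7.25 and 8.18. The groups did not overlap, and the difference was 3.08 (SE 0.45, adjusted p = 0.000477). No stage 57 array read above its array median there, and such signals are not separated from background here, so no fold is given. At 1 day stage 53 read 8.5, 9.2, 10.33 and 10.05 and stage 57 read 6.45, 8.1, 7.32 and 8.51. There the lowest stage 53 array lay just under the highest stage 57 array, which alone of its group read above its array median. The difference was 1.92 (SE 0.45, adjusted p = 0.0282). The 1 day call ended without the 3 arrays (2.04, adjusted p = 0.0731). Among the 1 day arrays it also ended when replicate 3 or 4 of the stage 53 group was left out (adjusted p = 0.115 and 0.0974), or replicate 1 or 3 of the stage 57 group (adjusted p = 0.0723 and 0.0739). The call at 5 days held in all 27 alternative settings, with differences of 2.53 to 3.29.

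The other copy, tbx3.L, read 8.81, 9.03, 9.8 and 9.13 at stage 53 at 5 days and 7.19, 7.86, 7.68 and 8.51 at stage 57. At 1 day stage 53 read 7.93, 8.9, 9.03 and 8.95 and stage 57 read 7.46, 7.71, 5.36 and 7.69. Its groups did not overlap on either day, but the differences of 1.65 and 1.38 did not pass at 1 or 5 days (SE 0.47 each, adjusted p = 0.0754 and 0.0805). Averaged over both days the difference was 1.51 (SE 0.33, adjusted p = 0.00528). At 5 days it passed without the 3 arrays (1.4, SE 0.35, adjusted p = 0.0138). No stage 57 array read above its array median for tbx3.L on either day, and such signals are not separated from background here.

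The paralogue tbx2.L, which is expressed together with tbx3 in the mouse limb bud, read 7.96 to 8.83 at stage 53 and 7.15 to 9.09 at stage 57 at 5 days (0.62, SE 0.49, adjusted p = 0.489). Its highest stage 57 array at either day was one of high actin ratio, and without those 3 the 5 day difference was 1.04 (SE 0.35, adjusted p = 0.0566). Among the limb identity genes, tbx4.L, a hindlimb gene, read 5.54 to 7.83 over all 16 arrays on its probe set 1. It differed by -0.02 at 1 day and 0.61 at 5 days (adjusted p = 0.984 and 0.512). Its second probe set was untested, with group means of 4.65 to 5.33. The forelimb gene tbx5 has 3 single-symbol probe sets, of tbx5.L and tbx5.S, and all were untested, with group means of 3.35 to 5.94. No array of the 16 read above its own median signal for any tbx4.L, tbx5.L or tbx5.S probe set, and with no detection calls used here such signals are not separated from background. The remaining tested T-box members, tbx1.S and tbx6r.L, differed by -0.45 to 0.57 between stages and did not pass.

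**Figure D3:**
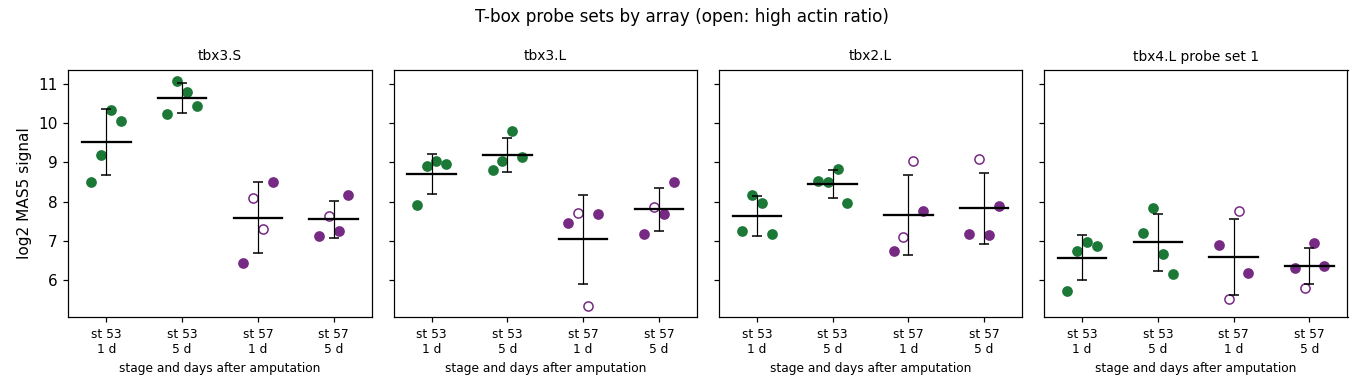
Log2 MAS5 signal on each array for tbx3.S, tbx3.L, tbx2.L and tbx4.L, by stage and days after amputation, with group means and SD bars (n = 4). Open circles mark the 3 stage 57 arrays of high actin ratio. The tbx3.S points at 5 days separate by stage, 10.22 to 11.07 against 7.13 to 8.18, whereas the tbx4.L groups overlap.

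The hindlimb identity gene pitx1.L had signals above the array median on all 16 arrays. At 5 days stage 53 read 11.15, 11.44, 11.86 and 11.64 and stage 57 read 10.36, 10.39, 9.86 and 10.93. The groups did not overlap, and stage 53 was 2.2-fold higher (1.14, SE 0.26, adjusted p = 0.014). At 1 day stage 53 read 10.66, 11.27, 11.2 and 10.75 and stage 57 read 10.15, 10.55, 10.34 and 10.6. These groups did not overlap either, but the difference of 0.56 did not pass (SE 0.26, adjusted p = 0.269). The 5 day call ended when the stage 53 array at 11.86 (1.02, adjusted p = 0.0554) or the stage 57 array at 9.86 (0.96, adjusted p = 0.0601) was left out, and held without the 3 arrays of high actin ratio (1.14, adjusted p = 0.0109). Averaged over both days the difference was 0.85 (SE 0.18, adjusted p = 0.00528). Both pitx3 probe sets were dim and untested, with group means of 2.95 to 5.48. The gene pitx3.L, which is expressed in lens and skeletal muscle in mouse and is named here after its values were seen, read lower at stage 53 in the average over days when no filter was applied (-1.75, SE 0.56, adjusted p = 0.0491), where 5.29% of all 15491 probe sets did so.

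In the TALE family, pbx2.L was the only member called. Pbx proteins are DNA-binding partners of Hox and Meis proteins. Its stage 53 arrays read 11.01, 10.93, 11.19 and 11.18 at 1 day and 11.08, 11.56, 11.41 and 11.44 at 5 days. Stage 57 read 9.96, 9.06, 9.71 and 10.76 at 1 day and 10.83, 9.9, 10.65 and 10.9 at 5 days. All 8 stage 53 arrays were above all 8 stage 57 arrays, as for 1.61% of all tested probe sets. The difference averaged over days was 1.0, or 2.0-fold (SE 0.22, adjusted p = 0.00601), and the differences of 1.2 at 1 day and 0.8 at 5 days did not pass (adjusted p = 0.0513 and 0.136). The 3 arrays of high actin ratio were the lowest stage 57 arrays, and without them the averaged difference was 0.65 (SE 0.16, adjusted p = 0.0134).

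The meis genes, which mark the proximal limb in mouse and chick, were not called with all arrays. For meis1.S on its probe set 1 stage 53 read 8.49 to 10.21 and stage 57 read 8.26 to 9.5 over both days, with differences of 0.67 at 1 day and 0.72 at 5 days (adjusted p = 0.374 and 0.311). Its other probe set was untested, with group means of 4.76 to 6.46. At 5 days meis2.L read 8.73, 7.86, 7.99 and 8.42 at stage 53 and 7.05, 7.88, 7.06 and 7.13 at stage 57. The only stage 57 array that reached the stage 53 range was the one of high actin ratio. The meis2.L difference at 5 days was 0.97 (SE 0.4, adjusted p = 0.155), and 1.17 without the 3 arrays (SE 0.31, adjusted p = 0.0183). Only 1 of 4 stage 53 arrays and no stage 57 array read above its array median at 5 days. Such low signals are not separated from background here. At 1 day it was -0.35 (adjusted p = 0.64). For meis3.L the arrays of stage 53 at 5 days spread from 4.64 to 9.55, wider than any difference between its groups, and meis3.S was untested.

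The 5 iroquois genes, irx1 to irx5, did not pass in any comparison with all arrays. Mouse Irx3 and Irx5 act in early hindlimb progenitors. At 5 days irx3.L read 7.65 to 8.74 at stage 53 and 6.92 to 8.05 at stage 57 (0.65, SE 0.41, adjusted p = 0.362), and irx5.L differed by 0.25 (SE 0.56, adjusted p = 0.838). The 3 others, named after their values were seen, had stage differences below 0 on both days. These were -0.72 and -0.89 for irx1.L, -0.38 and -0.5 for irx2.L, and -0.72 and -0.67 for irx4.L. At 1 day irx4.L read 7.64 to 8.03 at stage 53 and 8.17 to 8.86 at stage 57, groups that did not overlap, as for 4.32% of all tested probe sets in that direction (adjusted p = 0.308). When the stage 57 array at 7.28, replicate 1 at 5 days, was left out, irx4.L was called lower at stage 53 at 5 days (-1.11, SE 0.3, adjusted p = 0.0331) and in the average (-0.91, SE 0.2, adjusted p = 0.00641).

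**Figure D4:**
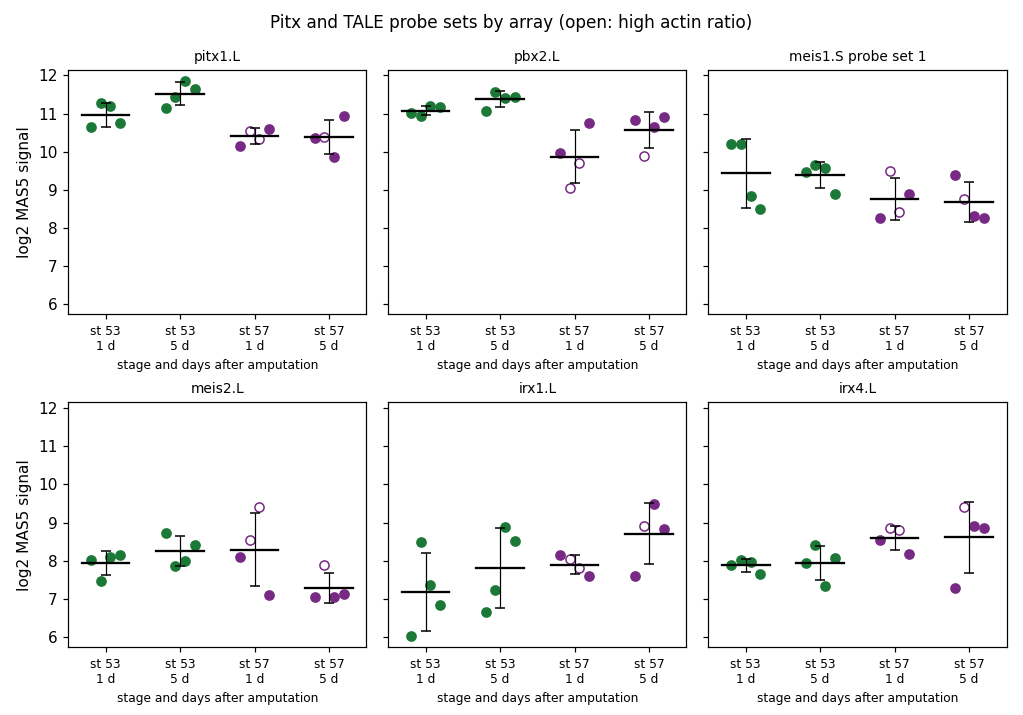
Log2 MAS5 signal on each array for pitx1.L and 5 TALE probe sets, by stage and days after amputation, with group means and SD bars (n = 4). Open circles mark the 3 stage 57 arrays of high actin ratio. The pbx2.L stage 53 points, 10.93 to 11.56, all lie above the stage 57 points, and the open circles are the lowest of those.

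Among the Dlx genes, which function in the limb ectodermal ridge, epidermis and skeleton in mouse, dlx2.L alone was called with all arrays. It was higher at stage 53 averaged over both days (0.78, SE 0.25, adjusted p = 0.0459). At stage 57, 1 of 4 arrays at 1 day and 2 of 4 at 5 days read above their array median, so no fold is given. Its stage 53 arrays read 8.43 to 9.76 at 1 day and 8.72 to 9.64 at 5 days, and its stage 57 arrays 7.97 to 9.11 and 7.5 to 8.75, so the stages overlapped. The call ended when any of 11 arrays was left out (adjusted p = 0.0547 to 0.0945). In the stage 53 groups these were replicates 1, 2 and 3 (1 day) and 1, 3 and 4 (5 days). In the stage 57 groups they were replicates 1, 2 and 4 (1 day) and 3 and 4 (5 days). It ended as well under quantile normalization and median centring (adjusted p = 0.079 and 0.0539).

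For 3 of the 6 Dlx probe sets the stage 57 arrays split with the actin ratio, and for dlx2.L, dlx5.L and dlx6.S the arrays of high ratio overlapped the others. Such splits are common here, as these arrays were the highest 3 for 20.6% of all tested probe sets and the lowest 3 for 18.9%. For dlx3.L the 3 arrays of high ratio read 9.56 to 10.04 and the other 5 stage 57 arrays 6.79 to 7.96, while all 8 stage 53 arrays lay between 7.84 and 8.63. For dlx3.S they read 10.09 to 10.19 against 8.03 to 9.39, and for dlx2.S 9.33 to 9.76 against 7.63 to 8.59. The stage differences at 5 days with all arrays were 1.19 for dlx2.S, 0.93 for dlx2.L, 0.82 for dlx3.S and 0.48 for dlx3.L, and none of these passed (adjusted p = 0.0942, 0.128, 0.282 and 0.687). Without the 3 arrays all 4 were called, dlx2.S at 1.53 (adjusted p = 0.00205), dlx3.S at 1.17 (adjusted p = 0.0199), dlx3.L at 1.04 (adjusted p = 0.0342) and dlx2.L at 1.09 (adjusted p = 0.0406). For dlx2.S and dlx3.L the only stage 57 array above its array median at 5 days was the one of high actin ratio. For dlx3.L only 1 of 4 stage 53 arrays was above it at 5 days. Signals below the median are not separated from background here. The part of RNA quality in these values was not tested apart from leaving the arrays out.

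At 1 day dlx6.S read 7.63 to 8.17 at stage 53 and 5.66, 6.91, 8.7 and 6.81 at stage 57, and differed by 0.89 (SE 0.47, adjusted p = 0.31). Its highest stage 57 array was one of high actin ratio, and the difference passed without the 3 arrays (1.68, SE 0.35, adjusted p = 0.0155). That fit sets the 2 stage 57 arrays left at 1 day, at 5.66 and 6.81, against the stage 53 arrays. None of these arrays read above its array median, and such signals are not separated from background here. For dlx5.L, whose mouse counterpart acts with Dlx6 in the ectodermal ridge, the differences were -0.13 at 1 day and -0.48 at 5 days (adjusted p = 0.891 and 0.561), and -0.23 at 5 days without the 3 arrays. Stage 53 and stage 57 dlx5.L signals overlapped, at 6.62 to 8.13 and 6.61 to 8.6.

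**Figure D5:**
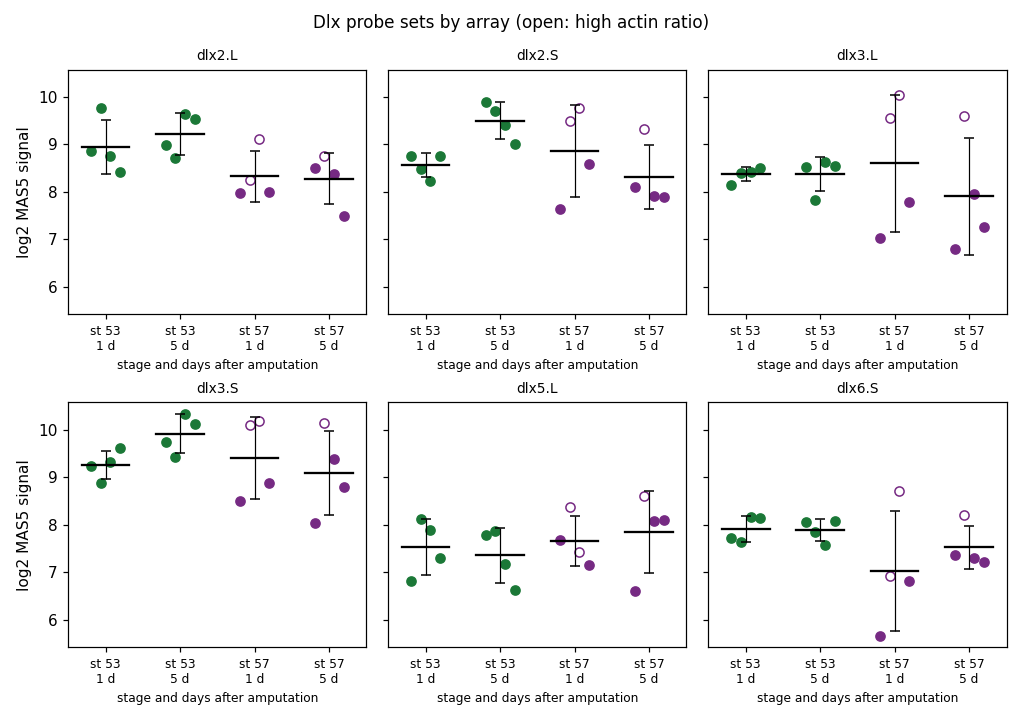
Log2 MAS5 signal on each array for the 6 Dlx probe sets, by stage and days after amputation, with group means and SD bars (n = 4). Open circles mark the 3 stage 57 arrays of high actin ratio. For dlx2.S, dlx3.L and dlx3.S the open circles are the highest stage 57 points, at 9.33 or above.

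No member was called for a change between 1 and 5 days within a stage, or for a difference of that change between stages. By limma 0 of 26 passed at stage 53 and 0 of 26 at stage 57, where 0.121% and 0.0% of all tested probe sets were called. At an unadjusted p below 0.05 there were 3 members (11.5%) and 2 members (7.69%), where 9.56% and 2.04% of all tested probe sets stood. At stage 53 these were tbx3.S (1.11, SE 0.45), dlx2.S (0.94, SE 0.42) and pitx1.L (0.55, SE 0.26), all higher at 5 days, at adjusted p = 0.413, 0.476 and 0.522. At stage 57 they were meis2.L (-1.01, SE 0.4) and pbx2.L (0.7, SE 0.31), both at adjusted p = 0.999. The arrays of high actin ratio lie unequally over the days, leaving 2 other stage 57 arrays at 1 day and 3 at 5 days. They were the lowest stage 57 arrays for pbx2.L. For meis2.L they read 7.88 to 9.4 and the other 5 stage 57 arrays 7.05 to 8.1. Without the 3 arrays 0 of 27 passed at stage 53, where 1.32% of all probe sets rose and 1.88% fell from 1 to 5 days, and dlx2.S came nearest (0.94, adjusted p = 0.0566). The dlx2.S groups, 8.24 to 8.76 and 9.0 to 9.89, did not overlap, as for 6.17% of all tested probe sets in that direction. The day change of lhx2.L was 1.44 at stage 53 and -0.67 at stage 57 (SE 0.73 each), and the difference between these of 2.12 did not pass (SE 1.03, adjusted p = 0.997). By limma 0 of 26 passed for that difference between stages, with 0.0258% of all tested probe sets called. The 3 members at an unadjusted p below 0.05 (11.5%, against 3.97% of all) were dlx2.S (1.5), meis2.L (1.32) and lhx5.S (1.05), all at adjusted p = 0.997. For dlx2.S and lhx5.S the arrays of high actin ratio were the highest stage 57 arrays. The part of RNA quality in these day changes was not tested apart from leaving the arrays out. With 0 calls, a larger stage gap at 5 days than at 1 day is not shown for any member.

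The untested tbx6.L, a gene of paraxial mesoderm in vertebrate embryos and named after its values were seen, read 6.96, 6.56, 6.12 and 6.48 at 1 day and 3.83, 4.49, 4.36 and 4.51 at 5 days at stage 57. These signals were dim on both days. In the limma fit with no filter the day change was -2.23 (SE 0.47) at adjusted p = 0.999, and 0.0% of all 15491 probe sets were called lower.

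Partner genes of these families were looked at beside them, from lists given in the processing notes. Of 14 tested symbols on the list of cofactors and relatives of LIM and TALE proteins, 2 had higher signals in stage 53 limbs and 1 a lower signal at 5 days. There 3.48% and 3.89% of all probe sets were called, and the median difference of the list was 0.63. Besides cofactor genes, the list holds homeobox genes themselves, namely isl, pknox, tgif and hoxa genes. Gene copies count as separate symbols. The repressor gene tgif2.L, itself of the TALE class, was higher (1.58, SE 0.37, adjusted p = 0.0155). The LIM-only genes, whose proteins compete with LIM homeodomain proteins for Ldb1, went both ways, with lmo4.1.S higher (1.54, SE 0.44, adjusted p = 0.0415) and lmo4.2.L lower (-1.98, SE 0.49, adjusted p = 0.021). The Ldb1 genes differed by 0.38 (ldb1.L) and 0.63 (ldb1.S) and did not pass (adjusted p = 0.403 and 0.422). Averaged over both days 6 of 14 were higher and 1 lower, where 9.36% and 7.26% of all were called, among them ssbp4.S (1.33, SE 0.29, adjusted p = 0.00561) and ssbp2.S (1.13, SE 0.31, adjusted p = 0.0208), which encode proteins that bind Ldb1. At 1 day 0 of 14 passed in limma, with 5 of 14 at an unadjusted p below 0.05, against 18.1% of all tested probe sets.

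Of 14 tested genes of the ectodermal ridge and dorsoventral axis, 4 had higher signals in stage 53 limbs and 1 a lower signal at 5 days. The median difference was 0.81, and 3.48% and 3.89% of all tested probe sets were called higher and lower. Higher were the growth factor genes bmp2.L (2.16, SE 0.57, adjusted p = 0.0294) and fgf8.L (2.16, SE 0.47, adjusted p = 0.00996) and both copies of the FGF feedback inhibitor, spry2.L (2.02, SE 0.51, adjusted p = 0.0233) and spry2.S (1.21, SE 0.26, adjusted p = 0.00856). Lower was cd44.L, a hyaluronan receptor gene (-1.27, SE 0.35, adjusted p = 0.0336). At 1 day 0 of 14 passed in limma, with 2 at an unadjusted p below 0.05, against 18.1% of all, and bmp4.S at 1.3 (adjusted p = 0.0503). Without the 3 arrays 7 of 15 were higher and 1 lower at 5 days, where 8.27% and 7.54% of all tested probe sets were called. In that fit 2 of 15 were higher at 1 day (0.68% of all). From 1 to 5 days at stage 53, 4 of 15 rose (1.32% of all), against 0 of 14 with all arrays. The number tested grew from 14 to 15 because the limit on low signals was applied to the arrays left. Whether the added symbol is among those called is not given here, so these counts are not those of the same 14. On the list of cofactors and relatives 4 of 14 were higher and 1 lower at 5 days without the 3 arrays, beside the same 8.27% and 7.54%, and 0 of 14 passed at 1 day.

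Markers of some cell types in the tissue moved with stage as well. Of all tested probe sets, 3.48% were called higher and 3.89% lower at 5 days, and 0.99% and 1.56% at 1 day. A list with only 1 gene called in a direction is not read as a change of that cell type. Of 13 tested skeletal muscle genes 12 were lower at stage 53 at 5 days, and their summed linear signal was 5300 to 7166 at stage 53 and 28947 to 102476 at stage 57. Of 6 limb mesenchyme genes 4 were higher, with sums over the 8 symbols matched of 10805 to 17318 and 1763 to 3140. Of 14 epidermis genes 1 was higher and 1 lower, with sums over the 17 symbols matched of 40074 to 59212 and 30186 to 41868. At 1 day the sums were 6183 to 10358 and 24557 to 83063 for muscle, 6460 to 11405 and 1053 to 4408 for limb mesenchyme, and 48912 to 70032 and 27896 to 49141 for epidermis. At 1 day 12 of the 13 muscle genes were lower, 2 of the 6 limb mesenchyme genes higher, and of the 14 epidermis genes 2 higher and 1 lower. Of the other lists at 5 days, 1 of 6 cartilage, 2 of 4 nerve and Schwann cell, 1 of 7 blood cell and the 1 bone gene were lower, and 0 of 3 endothelial and 0 of 1 erythroid genes passed in limma, with 2 and 0 at an unadjusted p below 0.05. With the 3 high-ratio arrays left out, 8.27% of all tested probe sets were called higher and 7.54% lower at 5 days, and 0.68% and 1.44% at 1 day. In that fit 12 of 13 muscle genes were lower on either day. Limb mesenchyme genes were then higher in 5 of 6 cases at 5 days and 1 of 6 at 1 day. Of the 14 epidermis genes 3 were higher and 1 lower at 5 days and 0 passed at 1 day, and 3 of 6 cartilage, 3 of 4 nerve and Schwann cell and 1 of 3 endothelial genes were lower at 5 days. No marker signal was at 0. In such mixed tissue fewer cells of a type and less RNA per cell cannot be told apart, and the part of tissue makeup in the stage differences of lhx2.L, lhx9.L, lmx1b.1.S, tbx3, pitx1.L, pbx2.L and dlx2.L was not tested.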

How the data were processed

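RNA from 16 hindlimb samples was hybridised to single-colour Affymetrix arrays after 2-cycle amplification of 1 microgram, per the labels' protocols. The deposited intensity values are linear MAS5 signals, per the submitters' processing notes, and version and scaling target are not given in the sources used here. The mean of each array after trimming 2 percent at each end was 1000.1 to 1000.2. Array number, not read depth, limits precision. Probe sets were named from the platform annotation, and of the 47 members 45 matched a RefSeq gene of Xenopus_laevis_v10.1 by Entrez identifier.

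Control probe sets were removed and log2 signals taken with nothing added. The model, in limma 3.58.1 (R 4.3.3), had 1 mean per group over all 16 arrays, 6 contrasts and moderated variances following an intensity trend. The fit was tested on simulated data. Standard errors are from that fit. Members, partner lists and marker lists were chosen with earlier results of these data known. Text names every called member, all lhx2 probe sets, a fixed set of limb genes (tbx2 to tbx5, pitx1, lhx9, lmx1b, meis1 to meis3, dlx2, dlx3, dlx5, dlx6, irx3 and irx5), and in each family the brightest tested probe set and the one of largest stage difference at 5 days.

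Genes searched for the list of cofactors and relatives were ldb1, ldb2, ssbp2, ssbp3, ssbp4, lmo1 to lmo4, rlim, isl1, isl2, pknox1, pknox2, tgif1, tgif2, hoxa9 and hoxa10, of which 11 of 18 matched. Ridge and dorsoventral genes were fgf8, fgf9, fgf10, fgfr2, sp5, sp8, sp9, en1, wnt3a, wnt5a, wnt7a, rspo2, bmp2, bmp4, bmp7, tp63, jag2, notch1, cd44, etv4, etv5, spry1, spry2 and spry4, of which 15 of 24 matched. Each symbol was represented by its brightest probe set. Alternatives were quantile normalization, median centring, offsets of 31.3 and 101.8 (10th and 25th percentiles of all signals), dropping the filter, raising it to the 50th percentile, eBayes without the trend or made robust, array weights, only the groups compared, no arrays of actin log2 ratio above 4, and leaving out each array. Lists of cartilage, bone, nerve, endothelium, blood and erythroid markers were also computed.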

Additional observations from a re-analysis of the deposited data

Results flagged for a closer look

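Of 124 groups of 4 arrays (31 named probe sets in 4 groups), 10 held an array far from the other 3, where chance flags about 1 in 20. Replicate 2 of stage 57 at 5 days, an array of high actin ratio, read highest for dlx2.S (9.33, others 7.9 to 8.11), dlx6.S (8.2, others 7.22 to 7.36) and meis2.L (7.88, others 7.05 to 7.13). For tbx3.L, replicate 3 of stage 57 at 1 day, also of high ratio, read 5.36 (others 7.46 to 7.71), and replicate 1 of stage 53 at 1 day read 7.93 (others 8.9 to 9.03). For lhx2.L probe set 1, replicate 3 of stage 57 at 5 days read 2.56 (others 6.1 to 6.38) and replicate 1 of stage 53 at 5 days 8.17 (others 9.58 to 9.8). For dlx3.L, replicate 2 of stage 53 at 5 days read 7.84 (others 8.52 to 8.63). Among dim probe sets, replicate 1 of stage 53 at 1 day read 4.04 for tbx5.L (others 5.79 to 5.92), and replicate 3 of stage 53 at 5 days read 7.4 for tbx5.S probe set 2 (others 3.94 to 4.48).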

How the results depend on the processing

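The 12 called stage differences of members stayed past the threshold in 290 of 312 refits, and none changed sign. Dropping or raising the filter, changing eBayes or fitting only the groups compared leaves each difference itself unchanged. For a difference on 1 day, so does leaving out an array of the other day. The sign could not change in such refits. The 22 lost calls were of tbx3.S at 1 day, pitx1.L at 5 days and dlx2.L averaged over days. The tbx3.S call at 1 day also ended when only the 2 groups were fitted (adjusted p = 0.131), and the dlx2.L call with no filter (adjusted p = 0.0623). The number of members called at 1 day, 1 with all arrays, was 3 with either offset or with array weights, 2 with no filter, 2 without the 3 arrays of high actin ratio, 0 when only the 2 groups were fitted, and 0 to 4 with single arrays left out. The count was 0 when replicate 3 or 4 of the stage 53 group at 1 day was left out, 4 without replicate 4 of the stage 57 group at 1 day, 3 without replicate 2 of the stage 57 group at 5 days, and 2 without replicates 2 or 3 (1 day) or 1, 3 or 4 (5 days) of stage 57. Leaving out any 1 stage 57 array, either offset or no filter lets lhx9.L into the test, and it is 1 of the calls in each of these counts, on all stage comparisons. Leaving it aside, the 1 day count with single arrays left out was 0 to 3. Of all 11618 tested probe sets, 115 were called higher at 1 day in the main fit. This became 123 and 133 with the offsets, 208 with array weights, 79 without the 3 arrays and 26 when only the 2 groups were fitted. It was 102 of 15491 with no filter. With single arrays left out it was 22 to 312, the highest without replicate 4 of the stage 57 group at 1 day. Called lower at stage 53 were irx4.L without replicate 1 of stage 57 at 5 days (5 days and average) and pitx3.L with no filter (average). At 5 days, 4 became 2 with the filter at the 50th percentile, which tests 7 members, 11 with array weights, 11 without the 3 arrays, and 3 to 6 with single arrays left out. Of all probe sets, 404 of 11618 were called higher at 5 days in the main fit and 1457 with array weights. It was 961 without the 3 arrays, 153 to 737 with single arrays left out, and 321 of 7745 with that filter. With array weights meis2.L, tbx2.L, dlx2.S and dlx3.S were among the members called at 5 days, and dlx6.S among those at 1 day. Averaged over days, 7 members became 4 with that filter, 13 without the 3 arrays, and 6 to 9 with single arrays left out. Of all probe sets, 1088 were called higher there in the main fit and 864 of 7745 with that filter. It was 1023 without the 3 arrays and 741 to 1470 with single arrays left out. The cause of these changes beyond the number of members tested was not tested. Day changes and their difference between stages gave 0 calls of members in every setting. Of all 11618 tested probe sets, 4 rose and 10 fell at stage 53 in the main fit. This became 391 and 437 with array weights, and 123 and 163 when only the 2 groups were fitted. At stage 57 these 3 fits called 0 of all probe sets, so 0 members there is no result about the members. For the difference between stages, 3 probe sets were called in the main fit and 11 with array weights. Centring arrays on their medians moved the median 5 day stage difference of all probe sets from 0.102 to 0.002 and no member's sign of a called difference. No paired analysis was possible because the labels carry no replicate numbers shared between groups.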
